A study of Mus musculus with 6 samples.

Results

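The D cyclins, the kinases and inhibitors that act on them, the retinoblastoma gene Rb1 and Myc were examined as 10 genes (Ccnd1, Ccnd2, Ccnd3, Cdk4, Cdk6, Cdkn1b, Cdkn2a, Cdkn2b, Rb1 and Myc) of the 56953 in the count table. They were chosen by gene name, for their place in the G1 phase of the cell cycle, and with the fold changes of these same 6 libraries known, the lower Ccnd1 after recombinant DKK3 among them, so the values of the 10 genes in the 3 comparisons are given as a description. RNA was sequenced in bulk from acini, the enzyme-secreting units of the exocrine pancreas, of mice, cultured for 3 days under conditions of acinar-to-ductal metaplasia (ADM), the conversion of embedded acini into duct-like structures. There were 2 libraries in each of 3 groups. WT acini carried intact Dkk3 and were 10 and 11 weeks old by their labels. DD acini came from Dkk3 knockout mice, in which an exon of the gene is replaced in every tissue and not in acini alone, labelled 12 and 13 weeks. DD + rDKK3 acini had the same knockout and were given recombinant DKK3, the secreted glycoprotein encoded by Dkk3, and were labelled 14 and 15 weeks. All 6 cultures were kept in Matrigel under Waymouth's medium with serum, trypsin inhibitor and dexamethasone. Labelled age rises with group, so the effects of age and group cannot be told apart. The 2 libraries of a group also differ in labelled age, which would make them separate animals if the ages are right, but the labels name no animal and p-values measure only the spread between these samples. The treated libraries carry the names of the untreated ones in their titles (DD1 and DD2) under different ages, and whether they share animals could not be settled.

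D cyclins are the sensors of growth signals at the entry to the cell cycle. Mitogens acting through the MAPK cascade raise cyclin D1, the D cyclins activate CDK4 and CDK6, and these kinases phosphorylate the retinoblastoma protein, which then releases E2F factors to switch on genes for DNA replication. INK4 proteins such as p15 and p16 bind CDK4 and CDK6 directly, p27 acts on cyclin-CDK complexes, and MYC, a transcription factor that pairs with MAX, raises genes of growth and ribosome making. In the pancreas, adult acinar cells rarely divide, and loss of the CDKN2A locus is among the common lesions of ductal adenocarcinoma.

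The libraries held 12018473 to 19750401 counts. Levels are given as CPM, read counts normalised to depth, with TMM scaling (trimmed mean of M values) for differences in library composition. Acinar identity was checked with 13 markers, all of them above 0, whose summed level ranged from 94193 to 162060 CPM. The 12 fibroblast and stellate cell markers summed to 757 CPM in DD 2 and 853 CPM in DD + rDKK3 2, against 44.1 to 152 CPM in the other 4 libraries, so these 2 libraries stood apart. Markers of ductal cells summed to 1641 to 2655 CPM, of macrophages to 142 to 324 CPM and of endothelial cells to 134 to 236 CPM, each highest in DD 2. Dkk3 had 10 and 1 counts in WT, 11 and 9 counts in DD, and 5 counts in each DD + rDKK3 library. Reads from parts of the gene outside the replaced exon are included in such a count, which therefore does not check the knockout. The library WT 2 is labelled female and the others male, but its 4 Y-linked genes summed to 141 CPM, within the 119 to 147 CPM of the other 5, and it had 16 Xist counts where the others had 0. The Y-linked genes thus went against the label of WT 2, and comparisons of the 9 fitted genes with WT are given also without it, here or among the settings in the closing section.

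The sequence context of the kinase genes was read from RefSeq promoter windows of GRCm38.p6, which were listed for 6 of the 10 genes, in 8 windows: Ccnd3 and Cdkn2a with 2 each, and Cdk4, Cdk6, Cdkn1b and Cdkn2b. The 250 bases before each start were searched on both strands for the E-box CACGTG, a site that MYC and MAX can bind. Cdk4 held 4 matches, whose first bases lie 172, 118, 98 and 11 bases before the start, and Cdk6 held 1, at 220 bases, while no other window among the 8 held one. Of 32817 mouse windows, 6.02% held at least 1 E-box and 7 held at least 4. Both windows are shown because they are those with the motif, each on the plus strand and 5′ to 3′, with E-boxes in capitals. Cdk4 is at chr10:127063285-127063534 and Cdk6 at chr5:3343643-3343892.
Cdk4: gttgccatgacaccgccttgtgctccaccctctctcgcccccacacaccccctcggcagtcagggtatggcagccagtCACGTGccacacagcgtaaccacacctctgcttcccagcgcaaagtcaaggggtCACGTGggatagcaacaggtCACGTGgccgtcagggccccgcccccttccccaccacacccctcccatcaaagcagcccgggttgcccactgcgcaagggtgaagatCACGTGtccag
Cdk6: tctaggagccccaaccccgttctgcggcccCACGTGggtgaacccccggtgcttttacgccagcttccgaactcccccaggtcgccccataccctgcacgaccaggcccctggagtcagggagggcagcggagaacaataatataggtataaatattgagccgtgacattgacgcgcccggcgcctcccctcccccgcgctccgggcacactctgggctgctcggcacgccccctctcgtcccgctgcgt
The AP-1 motif TGANTCA, present in 6.75% of all windows, had no match in the 8. An E2F motif (TTTCCCGC, TTTGGCGC or TTTCGCGC, in 1.53% of all windows) was matched once, in a Cdkn2a window, and a TCF/LEF motif (CTTTGAT or CTTTGTT, in 8.07%) once, in Cdk4 at 52 bases. A match of letters is a description of the window and no measure of binding.

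Among the D cyclins, Ccnd1 was lower in both libraries given rDKK3 than in any other library. Ccnd1 (ENSMUSG00000070348.6, GRCm39 chr7:144483668-144493662, minus strand) encodes cyclin D1, the D cyclin most directly tied to MAPK signalling. Its level was 31.1 and 27.6 CPM in WT, 32.6 and 29.4 CPM in DD, and 19.0 and 18.7 CPM in DD + rDKK3, from 317 to 690 counts per library. WT and DD overlapped, and neither overlapped the DD + rDKK3 libraries. The log2 fold change was 0.08 (SE 0.150) for DD against WT, -0.72 (SE 0.151) for DD + rDKK3 against DD, and -0.64 (SE 0.152) for DD + rDKK3 against WT. Of the 14738 genes fitted, Ccnd1 was 9th by p in DD + rDKK3 against DD, and 3.68% of genes had a log2 fold change at least as large in size. After Benjamini-Hochberg adjustment over all genes the edgeR quasi-likelihood test did not call it (adjusted p = 1.0 against DD and 0.32 against WT). A setting chosen after seeing the data took the shared names DD1 and DD2 as a replicate block within the 4 Dkk3-null libraries. There the edgeR test called Ccnd1 against DD (-0.72, adjusted p = 0.00514), as 1 of 194 genes called. Ccnd1 had been chosen with this difference known and the pairing could not be settled, so the call is no independent support. Leaving out each library in turn left the value against DD between -0.79 and -0.66, and leaving out DD 2 and DD + rDKK3 2 together, the libraries with raised fibroblast markers, gave -0.77. Against WT the range with 1 library left out was -0.72, without WT 2, to -0.53, and for DD against WT the value was 0.0022 without WT 2 and 0.18 without WT 1. In DD + rDKK3 against DD, 13 of 13 acinar markers had higher estimates (median 0.25). Of 10 ductal markers 6 had lower and 4 higher estimates (median -0.41). The part of such shifts in the Ccnd1 values was not tested. Since these are bulk libraries, fewer cells that express a gene and less RNA per cell cannot be told apart. Ccnd1 lies 32.7 Mb from Dkk3 on the same chromosome, and all gene positions are those of GRCm39.

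Ccnd2 (ENSMUSG00000000184.13, chr6:127102125-127129156, minus strand) encodes cyclin D2. It was at 40.6 and 45.5 CPM in WT, 56.1 and 53.0 CPM in DD, and 46.3 and 44.9 CPM in DD + rDKK3. The DD libraries were the highest of the 6, and WT and DD + rDKK3 overlapped. For Ccnd2 the log2 fold change was 0.34 (SE 0.139) for DD against WT, -0.26 (SE 0.138) for DD + rDKK3 against DD and 0.08 (SE 0.140) for DD + rDKK3 against WT. With 1 library left out the first of these ranged from 0.28, without WT 1, to 0.43, without WT 2, and the second from -0.30 to -0.24. The third was 0.17 without WT 2 and 0.02 without WT 1. Ccnd3 (ENSMUSG00000034165.17, chr17:47815976-47910616, plus strand) encodes cyclin D3. Its levels were 40.3 and 29.7 CPM in WT, 39.1 and 38.1 CPM in DD, and 35.7 and 41.1 CPM in DD + rDKK3. All groups overlapped, and the WT pair spanned more than the other 4 libraries. For Ccnd3 the log2 fold change was 0.14 (SE 0.181) for DD against WT, -0.0064 (SE 0.179) for DD + rDKK3 against DD and 0.14 (SE 0.181) for DD + rDKK3 against WT, and each of these changed sign with 1 library left out. Without WT 2 the values of Ccnd3 against WT were -0.058 for DD and -0.065 for DD + rDKK3.

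**Figure D1:**
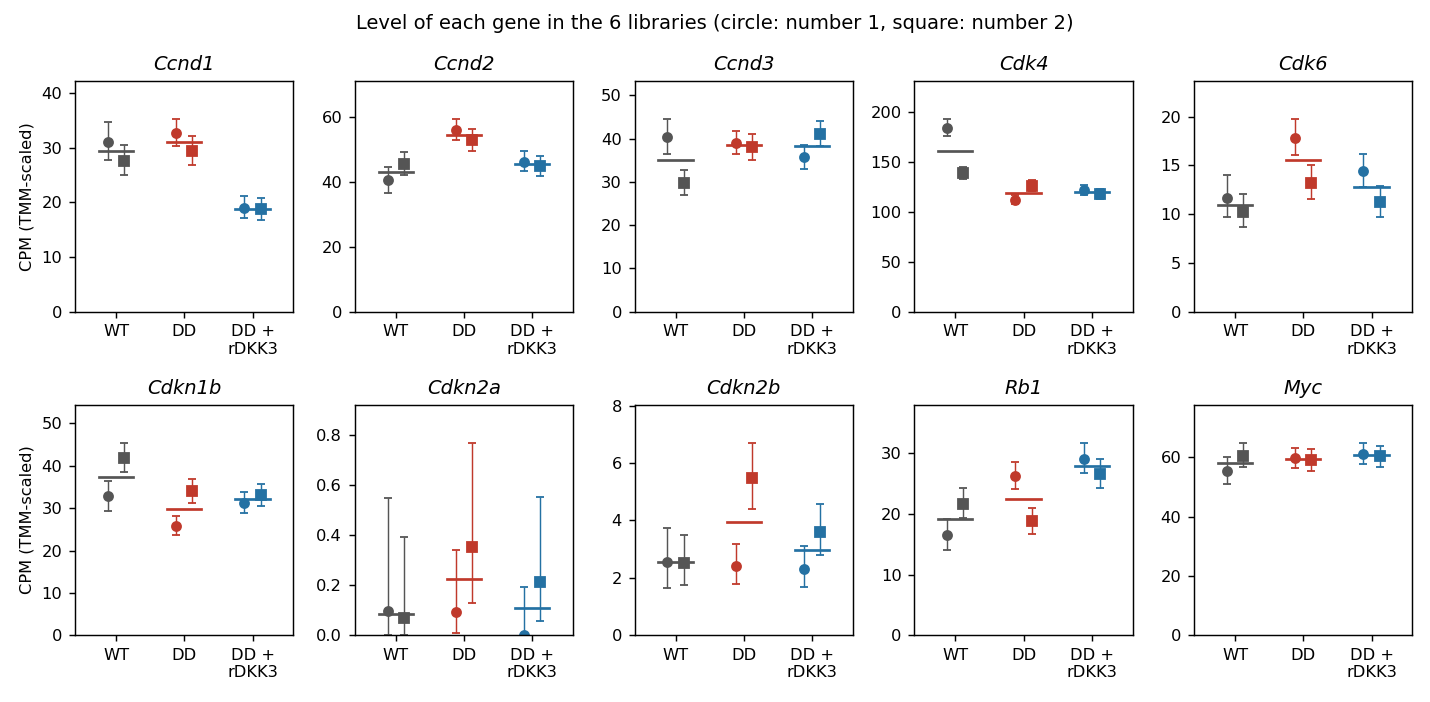
Each panel plots 1 gene, with TMM-scaled CPM on the vertical axis from 0 and the 3 groups on the horizontal axis; circles are libraries numbered 1, squares libraries numbered 2, vertical bars exact 95% Poisson intervals of counting error, and horizontal bars group means. The DD + rDKK3 libraries sit at 19.0 and 18.7 CPM for Ccnd1, under all 4 others, while Myc stays between 55.5 and 61.2 CPM in every library.

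The D cyclins were then compared with each other on a per-length scale, CPM per kb of exon. Their sum was 25.9 and 22.6 CPM per kb in WT, 28.2 and 26.6 in DD, against 22.3 and 23.5 after rDKK3. Of that sum Ccnd1 made up 31.1% and 31.7% in WT, 29.9% and 28.6% in DD, against 22.2% and 20.6% after rDKK3. Ccnd3 took 45.5% and 38.3% in WT, 40.5% and 41.7% in DD, against 46.8% and 51.0% after rDKK3. The share of Ccnd2 was 23.4% and 30.0% in WT, 29.6% in each DD library, and 31.0% and 28.4% in DD + rDKK3. After rDKK3, then, the D cyclin pool held a smaller part of Ccnd1 than in either other group, and larger parts of Ccnd3. Shares of a sum are tied to each other, and Ccnd3 itself had a log2 fold change of -0.0064 against DD. The ratio of Ccnd1 to Ccnd2 was 1.33 and 1.05 in WT, 1.01 and 0.965 in DD, against 0.714 and 0.724 after rDKK3, with no overlap between groups. With the longest transcript in place of all exons as the length, the mean Ccnd1 share was 27.0%, 25.2% and 17.9% in WT, DD and DD + rDKK3. The order of groups was the same, but a changed length scales a gene alike in every library, so this is no independent check.

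**Figure D2:**
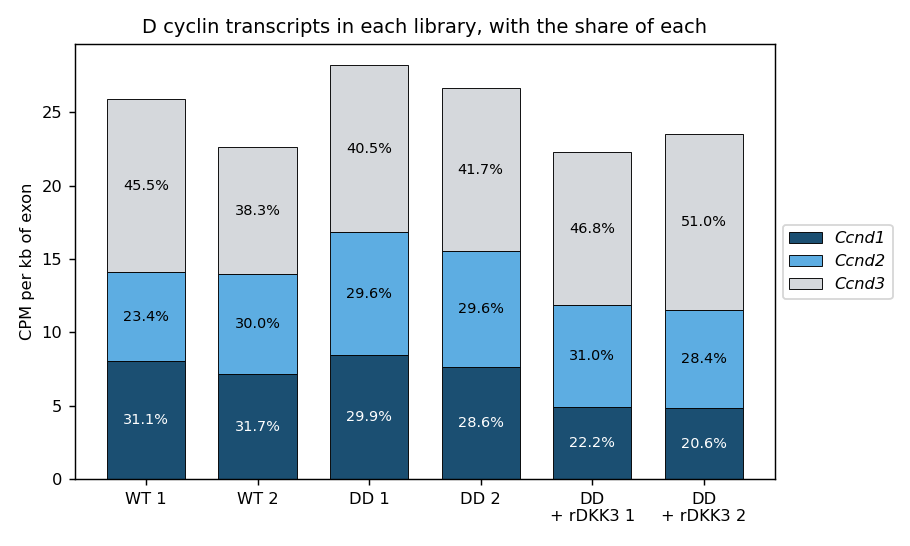
Bars are the 6 libraries, with CPM per kb of exon on the vertical axis from 0, stacked by Ccnd1, Ccnd2 and Ccnd3, and the number in each segment is that gene's percentage of the bar. The Ccnd1 segment is 28.6% to 31.7% of the bar in WT and DD and 20.6% and 22.2% in DD + rDKK3.

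The estimates of the kinases went in opposite directions between WT and DD, and the edgeR test called neither (adjusted p = 0.59 for both). Cdk4 (ENSMUSG00000006728.13, chr10:126899403-126903789, plus strand), whose promoter window is printed above, encodes a catalytic partner of the D cyclins. It was at 184 and 139 CPM in WT, 112 and 126 CPM in DD, and 122 and 118 CPM in DD + rDKK3. Both WT libraries were above all 4 Dkk3-null libraries, which overlapped. For Cdk4 the log2 fold change was -0.44 (SE 0.184) for DD against WT, 0.0083 (SE 0.183) for DD + rDKK3 against DD and -0.43 (SE 0.184) for DD + rDKK3 against WT. Both comparisons with WT turned on which WT library was kept. DD against WT was -0.21 without WT 1 and -0.62 without WT 2, and DD + rDKK3 against WT was -0.19 and -0.62. Cdk6 (ENSMUSG00000040274.12, chr5:3391485-3581008, plus strand) encodes the other kinase, with an overlapping role. Its levels were 11.7 and 10.2 CPM in WT, 17.8 and 13.2 CPM in DD, and 14.4 and 11.2 CPM in DD + rDKK3, so DD was above WT without overlap, and DD + rDKK3 overlapped both. For Cdk6 the log2 fold change was 0.51 (SE 0.227) for DD against WT, -0.28 (SE 0.222) for DD + rDKK3 against DD and 0.23 (SE 0.227) for DD + rDKK3 against WT. With 1 library left out the first ranged from 0.30, without DD 1, to 0.71, without DD 2, and was 0.42 without WT 2. The second ranged from -0.48, without DD + rDKK3 1, to -0.066, without DD 1, and was -0.11 without DD + rDKK3 2 and -0.47 without DD 2. The third ranged from 0.036, without DD + rDKK3 1, to 0.40, without DD + rDKK3 2, and was 0.14 without WT 2.

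Per length, Cdk4 exceeded Cdk6 in every library. The ratio of their CPM per kb was 71.0 and 61.0 in WT, 28.3 and 43.0 in DD, against 38.0 and 47.2 after rDKK3. Both WT ratios lay above all 4 ratios of the Dkk3-null libraries, among which DD and DD + rDKK3 overlapped. In DD against WT, 10 of 13 acinar markers had lower estimates, with a median log2 fold change of -0.54. Of 12 fibroblast and stellate markers 11 had higher ones, with a median of 1.82, their sum being 64.0 CPM in DD 1 and 757 CPM in DD 2. The part of such shifts in the differences of the members from WT was not tested.

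The inhibitors showed no common direction. Cdkn1b (ENSMUSG00000003031.15, chr6:134897364-134902476, plus strand) encodes p27, an inhibitor of cyclin-CDK complexes. It was at 32.8 and 41.8 CPM in WT, 25.9 and 33.9 CPM in DD, and 31.2 and 33.0 CPM in DD + rDKK3. Every pair of groups overlapped. The log2 fold change of Cdkn1b was -0.32 (SE 0.190) for DD against WT, 0.11 (SE 0.189) for DD + rDKK3 against DD and -0.22 (SE 0.190) for DD + rDKK3 against WT. The first of these was -0.13 without WT 2, -0.11 without DD 1 and -0.53 without DD 2, and the last was -0.023 without WT 2 and -0.36 without WT 1. The summed D cyclins per Cdkn1b, both per kb, were 3.59 and 2.46 in WT, 4.97 and 3.57 in DD, and 3.24 in each DD + rDKK3 library. WT overlapped both other groups in this ratio, and both DD values were above both DD + rDKK3 values.

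Cdkn2b and Cdkn2a are neighbours 11.6 kb apart on chromosome 4, and encode p15 and, from separate first exons, p16 and p19ARF. Cdkn2b (ENSMUSG00000073802.6, chr4:89224536-89229276, minus strand) was at 2.55 and 2.53 CPM in WT, 2.41 and 5.46 CPM in DD, and 2.32 and 3.60 CPM in DD + rDKK3, from 26 to 93 counts. The highest values were those of DD 2 and DD + rDKK3 2, and the other 4 libraries lay between 2.32 and 2.55 CPM. Those are also the libraries with the fibroblast markers at 757 and 853 CPM, and the part of such cells in the Cdkn2b level was not tested. The log2 fold change of 0.62 (SE 0.444) for DD against WT became -0.072 without DD 2. After rDKK3 it was -0.40 (SE 0.430) against DD and 0.22 (SE 0.447) against WT. Without WT 2 the values against WT were 0.62 for DD and 0.22 for DD + rDKK3. Cdkn2a (ENSMUSG00000044303.7, chr4:89192708-89212890, minus strand) had 1 count in each WT library, 2 and 6 counts in DD, and 0 and 4 counts in DD + rDKK3. It was the 1 gene of the 10 that did not pass the filter on low counts. The 6 counts of DD 2 correspond to 0.352 CPM, with an exact 95% Poisson interval of 0.129 to 0.767 CPM, and for the 0 counts of DD + rDKK3 1 the upper end of that interval was 0.195 CPM. In 4 of the 6 libraries Cdkn2a was under the floor of 3 counts, so no fold change is given, and a difference between groups was not detectable at this depth. A count per gene cannot separate p16 from p19ARF.

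**Figure D3:**
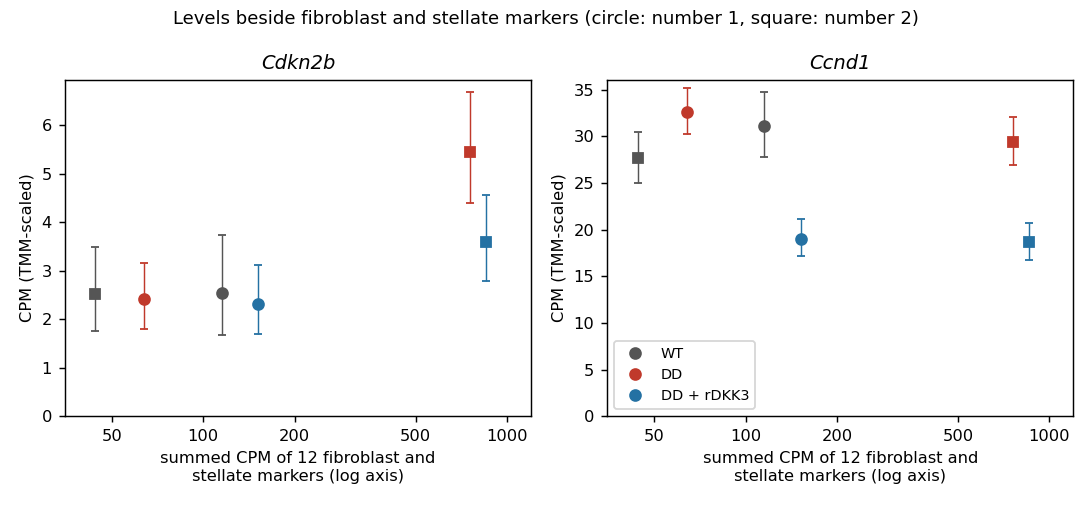
Points are the 6 libraries, with the summed CPM of 12 fibroblast and stellate markers on a log horizontal axis and TMM-scaled CPM of Cdkn2b (left) or Ccnd1 (right) on the vertical axis from 0; bars are exact 95% Poisson intervals, colours are groups, and circles and squares are libraries 1 and 2. Cdkn2b is at 5.46 and 3.60 CPM in the libraries with 757 and 853 CPM of markers, while Ccnd1 in the DD + rDKK3 libraries is at 19.0 and 18.7 CPM with markers at 152 and 853 CPM.

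Rb1 (ENSMUSG00000022105.7, chr14:73421113-73563262, minus strand) encodes the retinoblastoma protein, the substrate through which CDK4 and CDK6 control E2F. It was at 16.5 and 21.7 CPM in WT, 26.2 and 18.7 CPM in DD, and 29.1 and 26.6 CPM in DD + rDKK3. The DD + rDKK3 libraries were the highest of the 6, and WT and DD overlapped. For Rb1 the log2 fold change was 0.23 (SE 0.218) for DD against WT, 0.31 (SE 0.214) for DD + rDKK3 against DD and 0.54 (SE 0.217) for DD + rDKK3 against WT, the last with an adjusted p of 0.32. DD + rDKK3 against DD ranged from 0.089, without DD 2, to 0.55, without DD 1, and DD + rDKK3 against WT from 0.38, without WT 1, to 0.76, without WT 2. Without WT 2 the difference of DD from WT was 0.45.

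Myc (ENSMUSG00000022346.18, chr15:61857240-61862223, plus strand) varied least of the 9 genes that passed the filter. It was at 55.5 and 60.6 CPM in WT, 59.7 and 59.0 CPM in DD, and 61.2 and 60.3 CPM in DD + rDKK3, so the highest library was 1.10 times the lowest. Both DD + rDKK3 libraries were above both DD libraries, by log2 0.03 (SE 0.137), while WT and DD overlapped. The log2 fold change of Myc was 0.03 (SE 0.138) for DD against WT and 0.07 (SE 0.138) for DD + rDKK3 against WT, and without WT 2 these were 0.10 and 0.14. The corresponding ratio of highest to lowest library was 1.74 for Ccnd1, 1.38 for Ccnd2 and Ccnd3, 1.64 for Cdk4, 1.74 for Cdk6, 1.62 for Cdkn1b, 2.35 for Cdkn2b and 1.76 for Rb1.

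**Figure D4:**
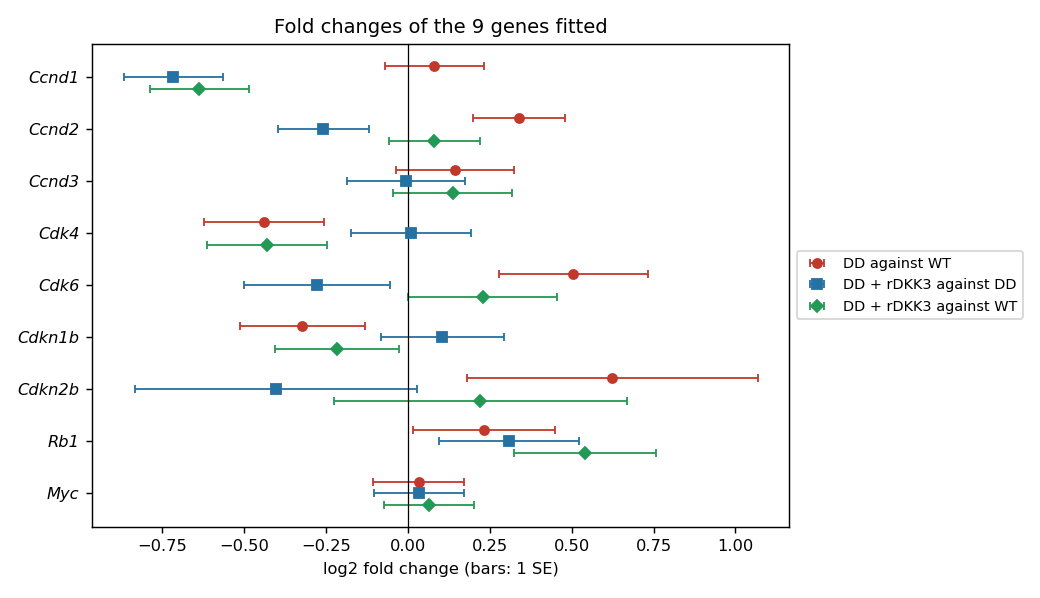
The horizontal axis is the log2 fold change from the edgeR fit and the vertical axis the 9 genes that passed the filter; red circles are DD against WT, blue squares DD + rDKK3 against DD, green diamonds DD + rDKK3 against WT, and bars 1 SE. Ccnd1 lies at -0.72 and -0.64 in the comparisons with DD + rDKK3, Cdk4 at -0.44 and -0.43 in those with WT, and Myc between 0.03 and 0.07.

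Set against all genes, 9 of the 10 genes were fitted and the edgeR quasi-likelihood test called 0 of the 9 in each comparison. Over all genes 0.0407% were called in DD against WT, 0.0% in DD + rDKK3 against DD and 0.0475% in DD + rDKK3 against WT. DESeq2 also called 0 of the 9 in each, beside 80, 4 and 60 of all genes. The replicate block within the Dkk3-null libraries, which called 194 of all genes, called 1 of the 9, Ccnd1. At an unadjusted p under 0.05 stood 2, 1 and 3 of the 9 in the same order, beside 8.26%, 1.98% and 15.3% of all genes. The groups did not overlap for 3 of 9 genes in DD against WT (Ccnd2 and Cdk6 higher, Cdk4 lower), beside 37.8% of all genes. In DD + rDKK3 against DD this held for 4 of 9 (Ccnd1 and Ccnd2 lower, Rb1 and Myc higher), beside 29.5% of all genes. In DD + rDKK3 against WT it held for 3 of 9 (Ccnd1 and Cdk4 lower, Rb1 higher), beside 55.0% of all genes. The median log2 fold change of the 9 was 0.14, -0.0064 and 0.08 in the 3 comparisons, and that of all genes 0.02, -0.0028 and 0.02. The comparisons share libraries, so a gene's values in them are not independent.

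The order of the 10 genes per length was led by Cdk4 and Myc in all groups. In WT the means were 60.1 ± 11.9 CPM per kb for Cdk4, 23.6 ± 1.49 for Myc, 10.2 ± 2.20 for Ccnd3, 8.19 ± 1.40 for Cdkn1b, 7.61 ± 0.634 for Ccnd1 and 6.42 ± 0.517 for Ccnd2 (SD, n = 2 each). Rb1 at 1.78 ± 0.343, Cdkn2b at 0.933 ± 0.0067, Cdk6 at 0.906 ± 0.084 and Cdkn2a at 0.072 ± 0.017 CPM per kb followed. In WT the libraries of Ccnd3 and Cdkn1b, of Cdkn1b and Ccnd1, and of Cdkn2b and Cdk6 overlapped, and the other neighbours did not. In DD, Ccnd2 at 8.12 ± 0.328 and Ccnd1 at 8.03 ± 0.587 CPM per kb overlapped, above Cdkn1b at 6.57 ± 1.25. In DD + rDKK3, Ccnd1 at 4.89 ± 0.065 CPM per kb stood under Ccnd2 at 6.79 ± 0.155 and Cdkn1b at 7.06 ± 0.280 without overlap. The level of Rb1 depends on its length, since its exons together span 10704 bases and its longest transcript 5012.

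The E2F and DP factors and other pathway genes were considered next, in lists written with earlier results of these data known. Of the 93 pathway genes fitted, edgeR and DESeq2 each called 0 in every comparison. In edgeR, 5, 1 and 7 of the 93 had an unadjusted p under 0.05 in DD against WT, after rDKK3 against DD and after rDKK3 against WT. Over all genes the shares were 8.26%, 1.98% and 15.3%. Other settings called named genes too. The replicate block within the Dkk3-null libraries called 2, Ccnd1 being the 1 member, and the fit with no filter called 1. Of 10 E2F and DP factors, 9 were fitted, of which 7 had higher estimates in DD than in WT and 8 had lower estimates in DD + rDKK3 than in DD, with medians of 0.19 and -0.09 on the log2 scale. E2f4, which mainly represses in resting cells, was at 19.7 and 20.6 CPM in WT, 29.6 and 24.4 CPM in DD, and 25.3 and 23.7 CPM in DD + rDKK3. Its log2 fold change for DD against WT was 0.42 (SE 0.163, adjusted p = 0.59), with a range of 0.30 to 0.56 when 1 library was left out, and WT lay under all other libraries. E2f7, an E2F that represses late in the cycle, was between 0.070 and 1.12 CPM, with a log2 fold change of 1.94 (SE 0.810) in DD against WT, which was 3.46 without WT 1 and 1.08 without WT 2. Its 0.070 CPM in WT 2 lay under the floor of 3 counts, 0.211 CPM in that library, so these values rest on few counts. E2f5, another repressing E2F, had a log2 fold change of -0.33 (SE 0.179) in DD + rDKK3 against WT. Among 6 other CDK inhibitors and pocket proteins the medians were -0.0023 and 0.10 for DD against WT and DD + rDKK3 against DD. Here the retinoblastoma relatives Rbl1 and Rbl2 had log2 fold changes of -0.32 (SE 0.225) and 0.22 (SE 0.187) after rDKK3 against DD, and Cdkn1c, which encodes p57, -0.34 (SE 0.389) in DD against WT. Rbl2 was at 0.12 without DD + rDKK3 1, and Cdkn1c at -0.14 without WT 1 and -0.50 without WT 2.

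Genes that E2F switches on for DNA replication had mostly lower estimates after rDKK3. Of 20 G1/S genes, 14 had higher estimates in DD than in WT, with a median of 0.12, and 18 had lower estimates in DD + rDKK3 than in DD, with a median of -0.29, beside -0.0028 for all genes. With 1 library left out the second median stayed between -0.47 and -0.21, whereas the first was -0.07 without WT 2. In the same comparison of DD + rDKK3 with DD, 13 of 13 acinar markers had higher estimates, with a median of 0.25, and 6 of 10 ductal markers lower ones, with a median of -0.41, and their part in the G1/S values was not tested. Cdc6, which loads the replicative helicase, was at 0.883 and 1.33 CPM in WT, 1.51 and 1.76 CPM in DD, and 0.739 and 0.806 CPM in DD + rDKK3. Its log2 fold change against DD was -1.07 (SE 0.409), and such low levels rest on few counts. Uhrf1, needed to keep DNA methylation through replication, was at 4.02 and 2.18 CPM in WT, 3.07 and 3.99 CPM in DD, and 2.27 and 1.93 CPM after rDKK3. Its log2 fold change against DD was -0.74 (SE 0.369), and WT overlapped both other groups. Pcna, the sliding clamp of DNA polymerase, was at 51.0 and 50.8 CPM in WT, 39.4 and 55.7 CPM in DD, and 39.8 in each DD + rDKK3 library, so the DD libraries fell on both sides of the WT ones.

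For the 14 G2/M genes the values turned on DD 2. Their summed level was 33.7 and 25.6 CPM in WT, 27.0 and 56.5 CPM in DD, and 21.7 and 42.4 CPM in DD + rDKK3, highest in the 2 libraries in which the fibroblast markers stood at 757 and 853 CPM. The part of such cells in it was not tested. The median log2 fold change was 0.50 for DD against WT, with 13 of 14 higher, and -0.36 for DD + rDKK3 against DD, with 12 of 14 lower. Without DD 2 these medians were -0.13 and 0.24, and without DD + rDKK3 1 the second was 0.16. Mki67, the proliferation antigen Ki-67, was at 1.77 and 2.81 CPM in WT, 4.02 and 5.58 CPM in DD, and 2.80 and 5.75 CPM in DD + rDKK3. Foxm1, a driver of mitotic genes, was at 0.589 and 0.491 CPM in WT, 0.993 and 2.29 CPM in DD, and 0.475 and 1.45 CPM in DD + rDKK3. The lowest of these levels rest on few counts. Cdk1, the mitotic kinase, was at 5.01 and 3.65 CPM in WT, 3.36 and 6.75 CPM in DD, and 2.06 and 3.49 CPM after rDKK3. The DD libraries overlapped both other groups. Without DD 2 the log2 fold change of Cdk1 after rDKK3 against DD went from -0.86 to -0.27.

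**Figure D5:**
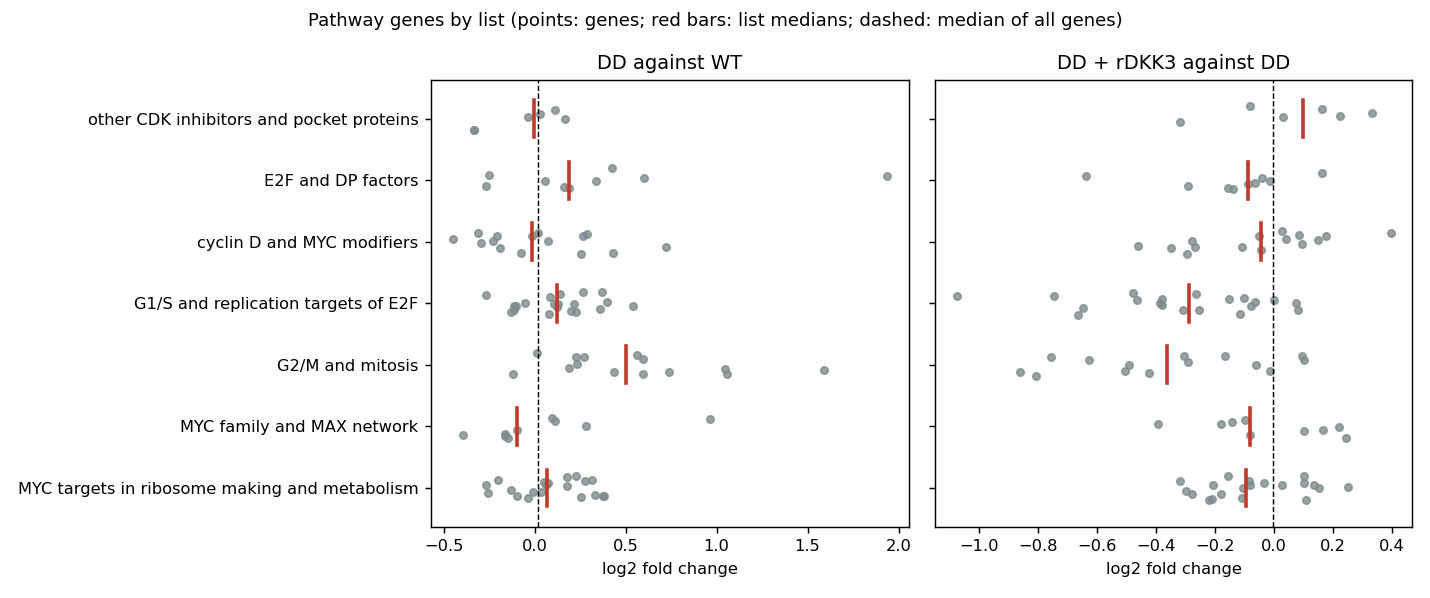
Grey points are genes, by list on the vertical axis and by log2 fold change on the horizontal axis, for DD against WT (left) and DD + rDKK3 against DD (right); red bars are list medians and dashed lines the median of all genes fitted. The G1/S genes lie mostly left of the dashed line after rDKK3, with a median of -0.29, and the G2/M medians are 0.50 and -0.36 with DD 2 included.

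Genes around MYC were spread about 0. Of the 15 genes that modify cyclin D or MYC, 7 had higher and 8 lower estimates both in DD against WT and in DD + rDKK3 against DD, with medians of -0.01 and -0.05. In DD + rDKK3 against WT 6 were higher and 9 lower, with a median of -0.11. There 4 of the 15 had an unadjusted p under 0.05 in edgeR, beside 15.3% of all genes. Mnat1, an assembly factor of the CDK-activating kinase, had a log2 fold change of -0.50 (SE 0.186) in DD + rDKK3 against WT, which was -0.31 without WT 1 and -0.65 without WT 2. Fbxw7, the ubiquitin ligase subunit that marks MYC for degradation, was at 6.97 and 9.26 CPM in WT, 12.1 and 9.92 CPM in DD, and 13.0 and 11.4 CPM in DD + rDKK3, a log2 fold change of 0.58 (SE 0.221) for DD + rDKK3 against WT and of 0.81 without WT 2. Neither was called (adjusted p = 0.32 for both against WT).

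In the MYC and MAX family, 9 of 10 genes were fitted, with medians of -0.10 and -0.08 for DD against WT and DD + rDKK3 against DD. Mxd1, a MAX partner that opposes MYC, was at 4.51 and 7.86 CPM in WT, 10.4 and 14.0 CPM in DD, and 9.50 and 13.6 CPM in DD + rDKK3, with both WT libraries under the other 4 and a log2 fold change of 0.97 (SE 0.320, adjusted p = 0.59) for DD against WT, which ranged from 0.65, without WT 1, to 1.44, without WT 2. Its relatives Mxd3 and Mxd4 had -0.49 (SE 0.268) for DD + rDKK3 against WT and 0.24 (SE 0.145) for DD + rDKK3 against DD. With 1 library left out, Mxd3 ranged from -0.76, without DD + rDKK3 2, to -0.20, without WT 1, and was -0.26 without DD + rDKK3 1, and Mxd4 ranged from 0.12, without DD 1, to 0.35, without DD 2. Of 20 MYC targets in ribosome making and metabolism, 13 had higher estimates in DD than in WT and 13 lower in DD + rDKK3 than in DD, with medians of 0.07 and -0.09. Nolc1, a nucleolar chaperone, was at 29.7 and 32.6 CPM in WT, 44.1 and 36.8 CPM in DD, and 41.0 and 47.9 CPM in DD + rDKK3, both WT libraries being the lowest. Rrp12, a factor of ribosome export, and Cad, the enzyme that opens pyrimidine synthesis, each had a log2 fold change of 0.48 (SE 0.194 and 0.213) for DD + rDKK3 against WT. With 1 library left out, Rrp12 ranged from 0.31, without DD + rDKK3 2, to 0.64, and Cad from 0.31, without WT 1, to 0.72, without WT 2.

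The genes with profiles nearest to 3 of the members were listed by Pearson's r of log2 CPM over the 6 libraries, among 8590 protein-coding genes, as a description in which all points share libraries. Nearest to Ccnd1 were Cldn2 (r = 0.993), Necap2 (0.990), Fth1 (0.988), Syngr1 (0.984) and Pisd (0.981). Cldn2, a claudin of leaky tight junctions, was at 47.9 and 42.6 CPM in WT, 51.3 and 46.7 CPM in DD, and 33.4 and 31.3 CPM in DD + rDKK3. Fth1, the ferritin heavy chain, was at 3008 and 2893 CPM in WT, 3075 and 3028 CPM in DD, and 2365 and 2444 CPM in DD + rDKK3. As with Ccnd1, the DD + rDKK3 libraries were the lowest for both. Each gene named here was picked for its likeness to the member, so a shared pattern follows from the search and is no support. Nearest to Ccnd2 were Aldh3a2 (0.977), Mlkl (0.975), Ccn2 (0.972), Eaf1 (0.970) and Abcc5 (0.966). Ccn2, a matricellular protein and well-known YAP target, was at 31.9 and 36.9 CPM in WT, 63.9 and 52.6 CPM in DD, and 44.2 and 41.3 CPM in DD + rDKK3, highest in DD. Nearest to Myc were Trio (0.994), Rnf216 (0.993), Dmxl2 (0.992), Nipbl (0.992) and Smarcal1 (0.990). Myc itself spanned little, so these correlations rest on small differences, WT 1 being the lowest library for Myc and for each of these 5 genes.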

How the data were processed

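Bulk RNA-seq of 6 acinar cultures was analysed. The deposited values are raw counts of reads for each gene in each library. The authors obtained them by aligning strand-specific reads with STAR 2.7.9a to GRCm39 with the basic GENCODE M32 annotation, counting over exons in union mode and summing per gene. Reads shared with near-identical copies may be dropped or misplaced by such counting, and a gene-level count cannot separate isoforms. The authors tested the counts with DESeq2 1.38.0.

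Spike-in rows (92, all at 0) were left out. In R 4.3.3, genes were kept by filterByExpr (minimum count 10, minimum total 15), which left 14738, scaled by TMM and fitted with edgeR 4.0.16 (quasi-likelihood F test, two-sided, 3 groups in one fit, common biological coefficient of variation 0.215). P-values were adjusted by Benjamini-Hochberg over the 14738 genes and genes called at an adjusted p under 0.05. The SE is the size of the log2 fold change divided by the square root of F. CPM was taken from TMM-scaled totals, log2 CPM with a prior count of 2, and CPM per kb from the union of exons of GENCODE M39, a later release than that used for counting. Poisson intervals (95%) and the floor of 3 counts cover counting error only, since reads had no molecular identifiers.

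The members and all gene lists were chosen with earlier results of these data known. Named pathway genes are the 3 of each list with the smallest p in any comparison, of which 1 is not reported here. For Ccnd1, Ccnd2 and Myc, the 5 protein-coding genes with the highest r were named, among those averaging 3 or more in log2 CPM. Replicates differed by more than counting noise (chi-square per degree of freedom 21.5 to 61.1). The procedure was run on simulated counts with a common biological coefficient of variation, to see that the mean of planted log2 fold changes returned. No share of calls was required there, so it does not bear on genes left uncalled. Alternatives were other scalings, no filter, DESeq2 1.42.0, a replicate block, each library left out, and, for shares, another gene length.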

Additional observations from a re-analysis of the deposited data

How the results depend on the processing

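With 2 libraries per group and 3 residual degrees of freedom, counts of calls moved with the method, while the 9 fitted members stayed uncalled in all but 1 setting. For DD against WT the 6 genes called became 528 with no filter, 80 with DESeq2, 14 without DD 2 and DD + rDKK3 2 together, and 2 to 6 with 1 library left out (2 without WT 1, WT 2 or DD 1). For DD + rDKK3 against DD the 0 became 73 with no filter and 4 with DESeq2. For DD + rDKK3 against WT the 7 became 788 with no filter, 60 with DESeq2, and 2 to 9 with 1 library left out (2 without WT 1 or WT 2, 3 without DD + rDKK3 1).

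A replicate block over all 6 libraries called 7, 0 and 5 genes in the 3 comparisons and no member. Treated and untreated Dkk3-null libraries have the names DD1 and DD2 in common, but differ in labelled age and no animal is named, so whether the numbers pair them could not be settled. Deviations of same-numbered libraries correlated at 0.65 between DD and DD + rDKK3, but at -0.39 and -0.25 between WT and these. A replicate block within the 4 Dkk3-null libraries, chosen after seeing the data, called 194 genes in DD + rDKK3 against DD, among them 1 member, Ccnd1 (log2 fold change -0.72, adjusted p = 0.00514, against 0.12 to 1.0 in the other settings). That fit has fewer residual degrees of freedom than the main fit, and Ccnd1 was chosen with this difference known. A crossed block with the WT numbers swapped, also chosen afterwards, called 296, 29 and 566 genes.

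Library size alone, with no TMM, moved the median of all genes from 0.02 to 0.22 in DD against WT, from 0.02 to 0.18 in DD + rDKK3 against WT. In DD + rDKK3 against DD it became -0.04, and there Cdk4 became -0.032 and Myc -0.0084, both above that median. Signs that turned belonged to small or uneven differences. Leaving out 1 library gave a range of -0.058 to 0.39 for Ccnd3 in DD against WT, -0.12 to 0.077 in DD + rDKK3 against DD and -0.065 to 0.39 in DD + rDKK3 against WT. It gave -0.10 to 0.10 for Cdk4 and -0.10 to 0.31 for Cdkn1b in DD + rDKK3 against DD, -0.0068 to 0.45 for Rb1 and -0.015 to 0.10 for Myc in DD against WT. For Cdkn2b the range was -0.072 to 1.13 in DD against WT, -0.91 to 0.30 after rDKK3 against DD and -0.12 to 0.50 after rDKK3 against WT, and without DD 2 and DD + rDKK3 2 together the first and last values were -0.075 and -0.12. The cause was not tested.

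With the longest transcript as gene length, the shares of Ccnd1, Ccnd2 and Ccnd3 were 27.0%, 24.3% and 48.7% in WT, with 25.2%, 27.0% and 47.8% for DD, against 17.9%, 26.4% and 55.6% after rDKK3. By construction, a changed length scales a gene alike in every library, so these shares are no independent check of group differences. Depth limits Cdkn2a, with 0 to 6 counts.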
